A study of Saccharomyces cerevisiae with 17 samples.

Results

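Ribosome assembly factors are proteins that cut, modify and fold ribosomal RNA in the nucleolus and then leave before the subunit is used. The 58 genes described here encode such factors in the budding yeast Saccharomyces cerevisiae. They were taken by systematic name from a table of raw gene counts. They were chosen by function and not by a rule on measured values, although earlier results of these data were then known. They are 58 of the 6692 identifiers in the table and 58 of the 6162 genes that passed the filter on low counts. No member was lost to that filter, since the lowest count of any member in any library was 796 reads.

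The 17 libraries of poly(A) RNA came from BY4741, a haploid laboratory strain, grown in medium without leucine (SD-LEU) to an absorbance of 0.6 to 0.7 at 600 nm. Every group carried the plasmid pRS415, which holds LEU2. Wild type had 5 libraries, upf1Δ (upf1delta::KlURA3) 3, nmd4Δ (nmd4delta::KlURA3) 6 and ebs1Δ (ebs1delta::KlURA3) 3. Upf1, the product of NAM7, is the helicase at the centre of nonsense-mediated mRNA decay, and Nmd4 and Ebs1 are proteins that associate with it. All 3 deletions carry KlURA3 and wild type does not, so a deletion and its marker cannot be told apart, and the labels do not say whether a genotype is 1 clone.

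Ribosome assembly begins while RNA polymerase I still transcribes the pre-rRNA. Box C/D and box H/ACA snoRNPs methylate and pseudouridylate it, and the UTP-A, UTP-B and Mpp10 complexes build the small-subunit processome on its leading end. DEAD-box helicases, GTPases and the Nop7 and Brix-domain proteins then remodel the large-subunit precursor. In yeast these genes are known as a co-regulated group, often called the ribosome biogenesis regulon, whose promoters carry the PAC and RRPE elements and whose mRNA levels follow growth and nutrient supply.

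Libraries held 19.8 to 59.5 M counted reads. The deleted genes matched the labels: NAM7 had 5 to 59 reads in upf1Δ libraries against 4535 to 10325 in wild type, NMD4 had 17 to 61 in nmd4Δ against 805 to 1765, and EBS1 had 0 to 1 in ebs1Δ against 3325 to 6950. Batch 1 held 11 libraries of all 4 genotypes, and batch 2 held 6 libraries of wild type and nmd4Δ alone. Across the batches, nmd4Δ libraries 1 and 4, 2 and 5, and 3 and 6, and wild type libraries 1 and 3, and 2 and 4, resembled each other more than the other pairs of their group taken across the batches, although the labels name each a replicate of its own. Each mean ± SD below therefore runs over 3 matched sets per genotype (n = 3), with matched libraries averaged first and each unmatched library as a set of its own.

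Within wild type the levels of the members spanned a wide range. Per kb of coding sequence, NOP1 (YDL014W, chrIV:427364-428347, plus strand), which encodes the methyltransferase fibrillarin, was the highest at 918 CPM (reads scaled to the effective library size) per kb. NHP2 at 546, GAR1 at 542, TIF6 at 461, NOP56 at 447, NSR1 at 434, CBF5 at 416 and NOP58 at 264 CPM per kb followed. The genes of all 6 core snoRNP proteins on the list were thus among its 8 highest levels per length. DBP7 at 32.3 and UTP20 at 27.2 CPM per kb were the lowest.

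In upf1Δ the assembly factor mRNAs were lower as a group. Of the 58 members, 51 fell and 0 rose at an adjusted p under 0.05 (edgeR's quasi-likelihood test, two-sided, Benjamini-Hochberg over all 6162 genes), where 35.1% of all tested genes fell. Their median log2 fold change was -0.38, against -0.02 over all tested genes and -0.16 over the 3234 other genes within the members' range of wild type CPM, of which 1643 fell. Values ran from -0.57 to 0.13. In 40 members (69.0%) every upf1Δ set lay below every wild type set, where 34.8% of all tested genes did. The 7 members that did not pass were MPP10, IMP3, ENP1, NSR1, SPB4, NOG2 and EBP2. In these bulk cultures, a lower level in every cell and a larger share of cells with little of the mRNA cannot be told apart.

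Scaling moved the size of that count. With library size alone in place of TMM factors, 22 members fell and 2 rose (IMP3 and SPB4), where 15.9% of all tested genes fell and 2783 of 6162 rose (edgeR). The median of all genes shifted to 0.14 on the log2 scale and the members' median lay at -0.22. Relative to the median of all genes, the members' median was -0.36 under both scalings. A change of scaling shifts all genes by about the same amount, so this agreement was fixed in advance and tests nothing. Of the members named here, NOP1 was the called gene whose estimate changed sign, from -0.13 to 0.03, where it no longer passed.

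In nmd4Δ, 54 of the 58 members fell and 0 rose (edgeR's quasi-likelihood test), where 14.4% of all tested genes fell. The median log2 fold change of the members was -0.34, against -0.001 over all tested genes and -0.03 over the 3234 other genes of like wild type CPM. The 4 members that did not pass were NOP1, GAR1, NSR1 and HAS1. Every member but NOP1 and TIF6 was lower in each of the 3 nmd4Δ sets than in each of the 3 wild type sets, 56 of 58 or 96.6%, where 21.2% of all tested genes were.

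The number of calls in nmd4Δ depended on how matched libraries were counted, while the size of the change did not. With matched libraries as a block in limma voom, 34 members fell, where 4.54% of all tested genes did. With the counts of matched libraries summed, 6 members fell (edgeR), where 1.84% of all tested genes did. The members' median log2 fold change was -0.33 in both. It was -0.34 within batch 1 and -0.31 within batch 2, in which 0 and 53 members fell, where 0.694% and 7.43% of all tested genes did (edgeR). The test of the difference between batches called 0 members, where it called 0% of all tested genes. In it 0 members had an unadjusted p under 0.05, where 63 of 6162 tested genes did. The batches share matched libraries, so their agreement is not an independent replication.

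In ebs1Δ, 0 of the 58 members passed in either direction (edgeR's quasi-likelihood test), where 21.4% of all tested genes did. At an unadjusted p under 0.05 there were 4 members, CBF5, GAR1, NHP2 and NOP16, where 2060 of all 6162 tested genes passed. Both limma voom with the matched block and DESeq2 called 0 members. The median log2 fold change was -0.04 and values ran from -0.24 to 0.20. The 95% intervals of single members reached from -0.43 to 0.57, so changes of the size seen in the other deletions lay within the intervals of some members.

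**Figure D1:**
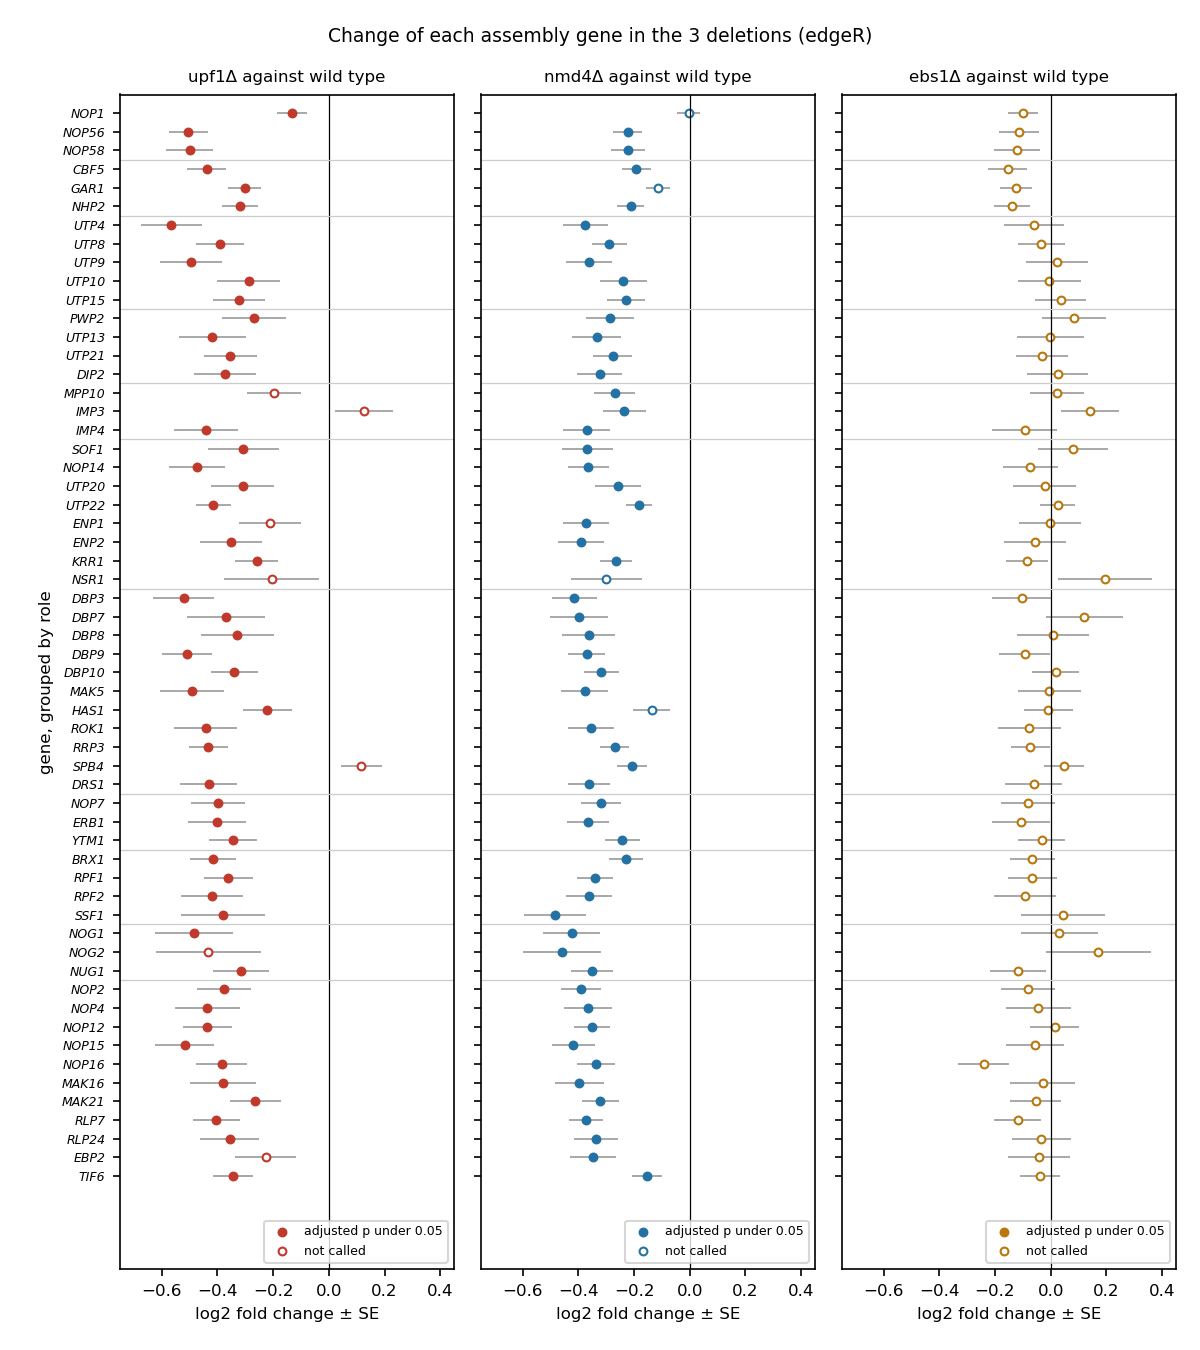
The log2 fold change of each of the 58 genes against wild type, with its SE as a bar, for upf1Δ (left), nmd4Δ (middle) and ebs1Δ (right), grouped by role. Filled points passed an adjusted p under 0.05 in edgeR, with matched libraries kept separate: 51 in upf1Δ, 54 in nmd4Δ and 0 in ebs1Δ.

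Messenger RNAs of the snoRNP proteins fell in upf1Δ in all cases, 3 of 3 for box C/D and 3 of 3 for box H/ACA. The medians were -0.50 and -0.32 on the log2 scale. In nmd4Δ 2 of 3 fell in each class, with medians of -0.22 and -0.19. With the matched block (limma voom) 1 of 3 remained in each class in nmd4Δ, without NOP58 (adjusted p = 0.078) and CBF5 (0.0662), and 2 of 3 box C/D genes in upf1Δ. NOP1 stood at 933, 850, 958, 913 and 882 CPM in wild type, at 820, 866 and 771 in upf1Δ, at 877 (lowest), 909 (median) and 928 (highest) in nmd4Δ, and at 806, 882 and 824 in ebs1Δ. The upf1Δ sets lay below the wild type sets, whereas the nmd4Δ values lay inside the wild type range. NOP1 fell by 0.13 ± 0.0549 (SE) in upf1Δ on the log2 scale (edgeR adjusted p = 0.0377, and 0.0676 with the matched block). In nmd4Δ its log2 fold change was 0.00 ± 0.0408 (edgeR adjusted p = 0.949).

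CBF5 (YLR175W), the pseudouridine synthase of the box H/ACA particle, had 589, 657, 577, 624 and 588 CPM in wild type, and 435, 511 and 437 in upf1Δ. In nmd4Δ it had 504, 541 and 561 as lowest, median and highest, and in ebs1Δ 507, 595 and 581. All upf1Δ and nmd4Δ libraries were below all wild type libraries, while ebs1Δ overlapped with wild type. The mean was 604 ± 31.8 CPM in wild type, 461 ± 43.0 in upf1Δ, 534 ± 16.9 in nmd4Δ and 561 ± 47.2 in ebs1Δ (SD, n = 3). The log2 fold change was -0.44 ± 0.07 in upf1Δ (edgeR adjusted p = 1.99e-05), -0.19 ± 0.0518 in nmd4Δ (adjusted p = 0.0108, and 0.0662 with the matched block) and -0.15 ± 0.0698 in ebs1Δ (adjusted p = 0.127).

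GAR1 and NHP2, the small structural subunits of the same particle, both fell in upf1Δ, at -0.30 ± 0.0579 and -0.32 ± 0.0647 on the log2 scale (edgeR adjusted p = 0.000136 and 0.000233). GAR1 had one of the smallest values in nmd4Δ, at -0.12 ± 0.0429 (edgeR adjusted p = 0.0515), and NHP2 fell there by 0.21 ± 0.0479 (adjusted p = 0.0039). In ebs1Δ NHP2 had 223, 235 and 243 CPM against 240, 275, 245, 269 and 256 in wild type, a log2 fold change of -0.14 ± 0.0646 (edgeR adjusted p = 0.138). NHP2 and NOP16 were the members whose 3 ebs1Δ sets all lay below the wild type sets, 2 of 58 or 3.45%, where 16.6% of all tested genes did.

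UTP-A proteins bind the leading spacer of the pre-rRNA early. Their mRNAs fell in 5 of 5 cases in upf1Δ and 5 of 5 in nmd4Δ. The medians were -0.39 and -0.29 on the log2 scale. In nmd4Δ 3 of 5 remained with the matched block (limma voom), without UTP10 (adjusted p = 0.176) and UTP15 (0.128). UTP4 (YDR324C, chrIV:1114433-1116763, minus strand) had 140, 151, 144, 159 and 147 CPM in wild type and 88.1, 122 and 83.8 in upf1Δ. In nmd4Δ it had 110, 115 and 118 as lowest, median and highest, and in ebs1Δ 121, 157 and 139. The 3 upf1Δ libraries were all below wild type, with library 2 closest to it, and in ebs1Δ libraries 1 and 3 were below every wild type library while library 2 lay among them. UTP4 had the largest fall of all members in upf1Δ, a log2 fold change of -0.57 ± 0.109 (edgeR adjusted p = 0.000187), from 148 ± 6.57 to 97.9 ± 20.7 CPM (SD, n = 3). It fell by 0.37 ± 0.0796 in nmd4Δ (edgeR adjusted p = 0.00315, and 0.0265 with the matched block).

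UTP10, a long scaffold protein of the same complex and its highest member by CPM, had 198, 223, 210, 237 and 201 CPM in wild type and 147, 213 and 169 in upf1Δ. It had 170, 178 and 201 in nmd4Δ as lowest, median and highest, and 190, 242 and 211 in ebs1Δ. Library 2 of upf1Δ lay inside the wild type range. The log2 fold change was -0.29 ± 0.114 in upf1Δ (edgeR adjusted p = 0.0323) and -0.24 ± 0.0842 in nmd4Δ (adjusted p = 0.0443, and 0.176 with the matched block).

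All 4 UTP-B genes on the list, whose products form a second early scaffold, fell in upf1Δ and in nmd4Δ, with medians of -0.36 and -0.30 on the log2 scale. With the matched block (limma voom) 0 of 4 passed in nmd4Δ, where the adjusted p was 0.118 for PWP2, 0.064 for UTP13, 0.0602 for UTP21 and 0.053 for DIP2. In upf1Δ 3 of 4 remained with it, without PWP2 (adjusted p = 0.0518). DIP2 (YLR129W) had 166, 186, 170, 189 and 167 CPM in wild type, 120, 162 and 123 in upf1Δ, and 134, 140 and 147 in nmd4Δ as lowest, median and highest. In ebs1Δ it had 147, 201 and 186. Values of upf1Δ and nmd4Δ were below every wild type library, and ebs1Δ lay on both sides of wild type. Its log2 fold change was -0.37 ± 0.110 in upf1Δ (edgeR adjusted p = 0.00584), -0.32 ± 0.081 in nmd4Δ (adjusted p = 0.00792, and 0.053 with the matched block) and 0.03 ± 0.109 in ebs1Δ (adjusted p = 0.898).

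In the Mpp10 complex, whose 3 proteins act together in the small-subunit processome, the genes went apart in upf1Δ. MPP10 had 154, 178, 160, 193 and 177 CPM in wild type and 133, 170 and 139 in upf1Δ, a log2 fold change of -0.20 ± 0.098 (edgeR adjusted p = 0.0813). IMP4 fell by 0.44 ± 0.116 (edgeR adjusted p = 0.00294). IMP3 (YHR148W, chrVIII:393534-394085, plus strand) had 40.3, 42.2, 38.3, 42.1 and 36.3 CPM in wild type and 42.3, 51.3 and 39.3 in upf1Δ, which overlap. It had the most positive estimate of all members there, 0.13 ± 0.104 on the log2 scale (edgeR adjusted p = 0.29).

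All 3 genes of the Mpp10 complex fell in nmd4Δ, and IMP4 alone passed there with the matched block (limma voom). IMP3 had 31.5, 34.1 and 35.6 CPM in nmd4Δ as lowest, median and highest, all below wild type, a log2 fold change of -0.24 ± 0.0768 (edgeR adjusted p = 0.0307, and 0.191 with the matched block). MPP10 had 139, 142 and 148 CPM there and fell by 0.27 ± 0.0724 (edgeR adjusted p = 0.0107, and 0.0644 with the matched block). In ebs1Δ IMP3 spread from 37.4 in library 1 to 52.5 in library 2, with 44.3 in library 3.

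Of the mRNAs of other small-subunit factors, 6 of 8 fell in upf1Δ and 7 of 8 in nmd4Δ. In nmd4Δ 4 of 8 remained with the matched block (limma voom), without SOF1 (adjusted p = 0.0557), UTP20 (0.0944) and UTP22 (0.0611). NSR1 (YGR159C, chrVII:806412-807656, minus strand), the yeast relative of nucleolin, varied widely between libraries of 1 genotype. It had 510, 585, 509, 586 and 526 CPM in wild type, 379, 611 and 418 in upf1Δ, 409, 425 and 488 in nmd4Δ as lowest, median and highest, and 505, 787 and 567 in ebs1Δ. Library 2 was the highest of its group in both upf1Δ and ebs1Δ, above every wild type library. The log2 fold change was -0.20 ± 0.170 in upf1Δ (edgeR adjusted p = 0.293), -0.30 ± 0.126 in nmd4Δ (adjusted p = 0.0884) and 0.20 ± 0.169 in ebs1Δ (adjusted p = 0.446). SOF1, a WD-repeat protein of the processome, had 82.8 CPM in wild type library 5 against 93.5 to 96.6 in the others. It fell by 0.31 ± 0.126 in upf1Δ (edgeR adjusted p = 0.0394) and by 0.37 ± 0.0927 in nmd4Δ (adjusted p = 0.00895, and 0.0557 with the matched block).

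DEAD-box helicases unwind or clamp pre-rRNA at set steps. Their mRNAs fell in 10 of 11 cases in upf1Δ and 10 of 11 in nmd4Δ. The medians were -0.43 and -0.36 on the log2 scale. The matched block (limma voom) left 7 of 11 in nmd4Δ, without DBP7 (adjusted p = 0.0653), DBP8 (0.0874) and SPB4 (0.0857). DBP3 (YGL078C, chrVII:360288-361859, minus strand) had 213, 250, 219, 256 and 239 CPM in wild type, 143, 192 and 145 in upf1Δ, 166, 177 and 185 in nmd4Δ as lowest, median and highest, and 184, 247 and 211 in ebs1Δ. DBP9 (YLR276C, chrXII:695046-696830, minus strand) had 154, 173, 158, 177 and 170 in wild type, 105, 131 and 107 in upf1Δ, 124, 129 and 131 in nmd4Δ, and 128, 172 and 158 in ebs1Δ. For both genes every upf1Δ and nmd4Δ library was below every wild type library. DBP3 fell by 0.52 ± 0.109 in upf1Δ (edgeR adjusted p = 0.000382) and by 0.41 ± 0.0801 in nmd4Δ (adjusted p = 0.00162). DBP9 fell by 0.51 ± 0.0910 (edgeR adjusted p = 7.13e-05) and by 0.37 ± 0.0668 (adjusted p = 0.00087).

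SPB4 (YFL002C, chrVI:145114-146934, minus strand), a helicase of late nucleolar large-subunit precursors, was the exception among them in upf1Δ. It had 73.8, 76.1, 76.4, 86.4 and 78.2 CPM in wild type, 80.5, 91.4 and 75.4 in upf1Δ, 64.8, 67.4 and 69.8 in nmd4Δ as lowest, median and highest, and 71.0, 87.0 and 77.7 in ebs1Δ. The upf1Δ libraries overlapped with wild type and the nmd4Δ libraries lay below it. The log2 fold change was 0.12 ± 0.0722 in upf1Δ (edgeR adjusted p = 0.154) and -0.21 ± 0.0533 in nmd4Δ (adjusted p = 0.00807, and 0.0857 with the matched block). DBP7, a large-subunit helicase, had 75.1, 76.2, 74.8, 78.5 and 63.8 CPM in wild type, where library 5 stood apart, 49.1, 72.5 and 51.6 in upf1Δ, and 65.1, 96.6 and 82.0 in ebs1Δ. In nmd4Δ it had 52.6, 56.4 and 58.8 as lowest, median and highest, all below wild type. It fell by 0.37 ± 0.140 in upf1Δ (edgeR adjusted p = 0.0273) and by 0.40 ± 0.103 in nmd4Δ (adjusted p = 0.0104, and 0.0653 with the matched block), and stood at 0.12 ± 0.139 in ebs1Δ (adjusted p = 0.578). HAS1, a helicase used in making both subunits, was the helicase not called in nmd4Δ, at -0.14 ± 0.0654 (edgeR adjusted p = 0.123), and it fell by 0.22 ± 0.0884 in upf1Δ (adjusted p = 0.0323).

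The Nop7 complex acts in processing of the large-subunit rRNA. Its mRNAs fell in 3 of 3 cases in upf1Δ and in nmd4Δ. The matched block (limma voom) left 2 of 3 in nmd4Δ, without YTM1 (adjusted p = 0.0743). NOP7 (YGR103W) had 356, 413, 369, 411 and 422 CPM in wild type, 266, 332 and 277 in upf1Δ, 290, 318 and 331 in nmd4Δ as lowest, median and highest, and 308, 411 and 372 in ebs1Δ. Every upf1Δ and nmd4Δ library lay below wild type. Its log2 fold change was -0.40 ± 0.0971 in upf1Δ (edgeR adjusted p = 0.00132), -0.32 ± 0.0718 in nmd4Δ (adjusted p = 0.00391) and -0.08 ± 0.0967 in ebs1Δ (adjusted p = 0.59).

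The 4 Brix-domain large-subunit genes fell in both upf1Δ and nmd4Δ, with medians of -0.40 and -0.35 on the log2 scale. In nmd4Δ 3 of 4 remained with the matched block (limma voom), without BRX1. BRX1 (YOL077C) had 155, 171, 159, 172 and 171 CPM in wild type, 114, 140 and 114 in upf1Δ, 138, 141 and 144 in nmd4Δ as lowest, median and highest, and 142, 177 and 150 in ebs1Δ. It fell by 0.42 ± 0.0811 in upf1Δ (edgeR adjusted p = 0.000165) and by 0.23 ± 0.0597 in nmd4Δ (adjusted p = 0.00889, and 0.0536 with the matched block). SSF1 (chrVIII:229335-230696, plus strand) had the largest fall of any member in nmd4Δ. It had 99.1, 110, 98.4, 109 and 94.8 CPM in wild type against 66.4, 73.1 and 79.4 in nmd4Δ as lowest, median and highest, a log2 fold change of -0.48 ± 0.112 (edgeR adjusted p = 0.00608, and 0.0322 with the matched block). SSF1 shares 92.1% identity with SSF2 over 1362 aligned bases, so reads could be assigned to either copy and its value is uncertain.

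GTPases act at successive steps of large-subunit maturation. Their mRNAs fell in 2 of 3 cases in upf1Δ and 3 of 3 in nmd4Δ. With the matched block (limma voom) NOG2 passed in upf1Δ (adjusted p = 0.0285) and was lost in nmd4Δ, where 2 of 3 remained. NOG1 had 290, 350, 278, 314 and 264 CPM in wild type, 193, 280 and 198 in upf1Δ, 209, 224 and 235 in nmd4Δ as lowest, median and highest, and 261, 383 and 315 in ebs1Δ. Its log2 fold change was -0.48 ± 0.139 in upf1Δ (edgeR adjusted p = 0.00541) and -0.42 ± 0.103 in nmd4Δ (adjusted p = 0.0071). NOG2 (chrXIV:721120-723112, minus strand) also varied widely within genotypes. In wild type it had 171, 188, 161, 166 and 131 CPM, in upf1Δ 99.0, 178 and 112, and in ebs1Δ 153, 241 and 197. In nmd4Δ it had 112, 120 and 129 as lowest, median and highest, all below wild type.

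The log2 fold change of NOG2 was -0.43 ± 0.188 in upf1Δ (edgeR adjusted p = 0.0528), -0.46 ± 0.139 in nmd4Δ (adjusted p = 0.025, and 0.0906 with the matched block) and 0.17 ± 0.187 in ebs1Δ (adjusted p = 0.557). The intron of NOG2 holds the snoRNA gene SNR191, and the 2 annotations overlap by 274 bases on 1 strand, so the reads of the pair may not be fully separable.

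Of the mRNAs of other large-subunit factors, 10 of 11 fell in upf1Δ and 11 of 11 in nmd4Δ. With the matched block (limma voom) EBP2 also passed in upf1Δ (adjusted p = 0.0427), and 10 of 11 remained in nmd4Δ, without TIF6. NOP15 (YNL110C, chrXIV:417826-418488, minus strand), an RNA-binding protein of early large-subunit precursors, had 110, 134, 110, 126 and 122 CPM in wild type, 79.5, 98.1 and 72.4 in upf1Δ, and 86.1, 89.2 and 93.4 in nmd4Δ as lowest, median and highest. In ebs1Δ it had 102, 132 and 111. The upf1Δ and nmd4Δ libraries all lay below wild type. NOP15 fell by 0.52 ± 0.105 in upf1Δ (edgeR adjusted p = 0.000299) and by 0.42 ± 0.0768 in nmd4Δ (adjusted p = 0.0012, and 0.0116 with the matched block).

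TIF6 (chrXVI:592332-593069, minus strand), the yeast form of eIF6 that keeps the large subunit from joining the small one, had 360, 383, 321, 330 and 323 CPM in wild type, 288, 319 and 273 in upf1Δ, 281, 312 and 351 in nmd4Δ as lowest, median and highest, and 326, 409 and 354 in ebs1Δ. The nmd4Δ libraries overlapped with wild type. TIF6 fell by 0.34 ± 0.0713 in upf1Δ (edgeR adjusted p = 0.000296) and by 0.15 ± 0.0528 in nmd4Δ (adjusted p = 0.0371, and 0.14 with the matched block). NOP16 (chrV:156803-157498, plus strand), also a large-subunit factor, had 103, 107, 96.7, 109 and 102 CPM in wild type and 90.2, 95.1 and 74.3 in ebs1Δ. That was the most negative estimate of the members in ebs1Δ, -0.24 ± 0.0921 on the log2 scale (edgeR adjusted p = 0.0728).

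**Figure D2:**
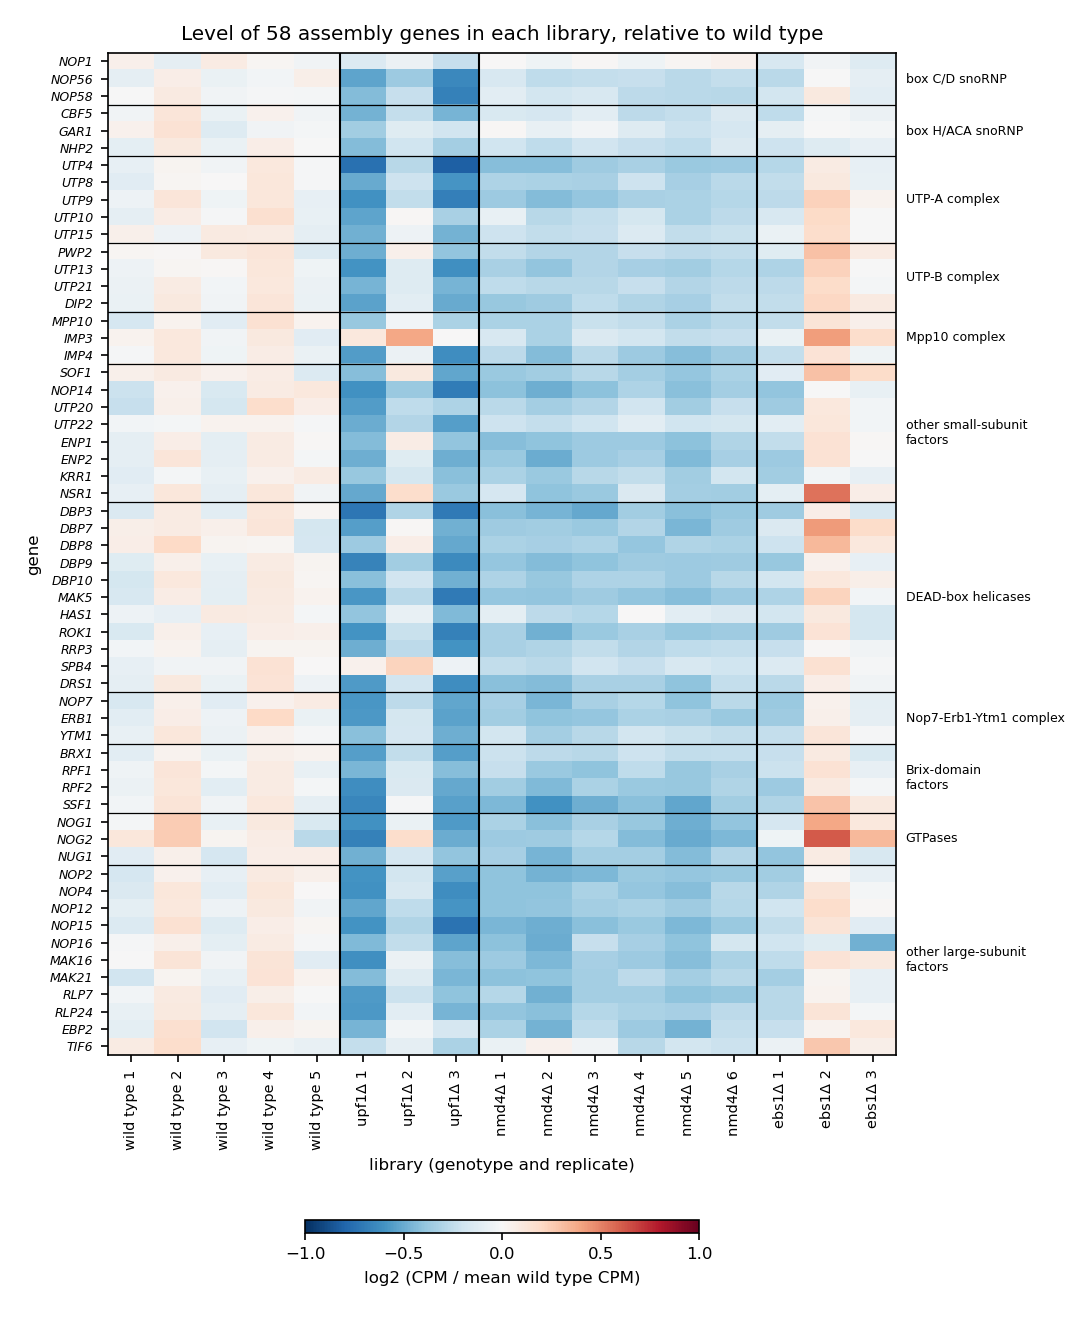
Each cell shows the log2 ratio of a gene's CPM in 1 library to its wild type mean, for 58 genes (rows, by role) and 17 libraries (columns, by genotype and replicate). Blue is lower and red higher than wild type; upf1Δ libraries 1 and 3 and all 6 nmd4Δ libraries are blue for nearly all genes, while library 2 of upf1Δ is paler and library 2 of ebs1Δ mostly red.

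The members moved up and down together between libraries of the same genotype. Their summed level was 11500, 12700, 11600, 12700 and 11900 CPM in wild type, 8700, 11000 and 8740 in upf1Δ, and 10300, 13100 and 11800 in ebs1Δ. The 6 nmd4Δ libraries lay between 9730 and 10200. Means over sets were 12100 ± 565 CPM in wild type, 9470 ± 1290 in upf1Δ, 10000 ± 226 in nmd4Δ and 11700 ± 1440 in ebs1Δ (SD, n = 3), so upf1Δ and ebs1Δ were more spread out than wild type and nmd4Δ. All 58 members were above their group's mean in upf1Δ library 2, and again all 58 in ebs1Δ library 2. In ebs1Δ library 1, 57 members were below it.

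Relative to wild type, the median member stood at -0.52, -0.15 and -0.50 on the log2 scale in the 3 upf1Δ libraries and at -0.24, 0.12 and -0.02 in the 3 ebs1Δ libraries. In the 6 nmd4Δ libraries it stood between -0.39 and -0.28. Without upf1Δ library 2, 56 members fell in upf1Δ with a median log2 fold change of -0.53, where 35.7% of all tested genes fell. Without library 1 or library 3, 43 and 42 members fell, where 35.8% and 34.5% of all tested genes did. Over the 1653 pairs of members, deviations from the genotype mean had a median Pearson r of 0.82 across the 17 libraries, and 99.8% of pairs were positive. The same measure over 9316 pairs of 137 ribosomal protein genes gave 0.39 and 84.8%. These libraries include the matched pairs and share their scaling, so the values are descriptions.

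Levels of 2 zinc-responsive genes, chosen after their values were seen, also differed between libraries of 1 genotype. ZRT1, the high-affinity zinc transporter, had 181 to 250 CPM in wild type, 2050, 162 and 1520 in upf1Δ, 2900 to 3440 in nmd4Δ, and 2300, 404 and 176 in ebs1Δ. ZPS1, a zinc-regulated cell wall protein, had 17 to 20.7 CPM in wild type, 952, 36.2 and 834 in upf1Δ, 1960 to 2110 in nmd4Δ, and 609, 40.4 and 33.2 in ebs1Δ. Both genes were high in upf1Δ libraries 1 and 3, in every nmd4Δ library and in ebs1Δ library 1, the libraries whose summed level of the members was 10300 CPM or less. The part of zinc supply or culture state in the levels of the assembly genes was not tested.

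**Figure D3:**
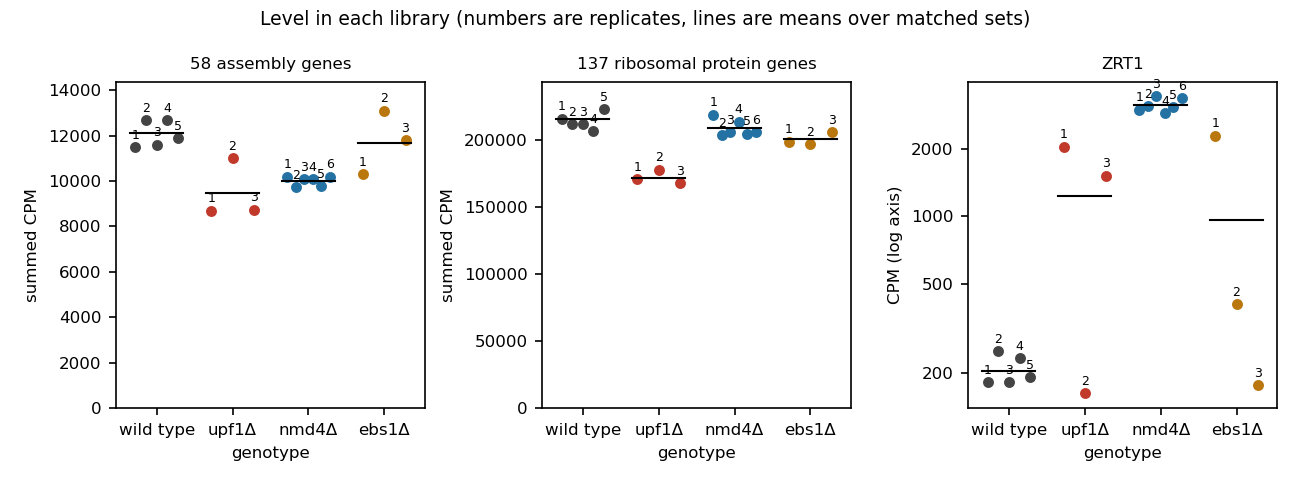
Summed CPM of the 58 assembly genes (left) and of 137 ribosomal protein genes (middle), and CPM of ZRT1 on a log axis (right), in each library by genotype; numbers are replicates and lines are means over matched sets. The assembly genes sum to 8700 and 8740 CPM in upf1Δ libraries 1 and 3 and to 11000 in library 2, where ZRT1 is at 162 CPM.

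Regulatory sequence was read for the members whose change in upf1Δ was the most negative (UTP4, DBP3, NOP15 and DBP9) and the most positive (IMP3 and SPB4), as the extremes of the response. Each window runs from 300 to 101 bases before the start codon, read 5′ to 3′ on the strand of the gene, from the RefSeq R64 genome, the build of sacCer3. Capitals mark every whole match, on either strand, to the PAC core (GATGAG, or CTCATC on the other strand) or the RRPE core (AAAAATTT, or AAATTTTT).
DBP3 chrVII:361960-362159, minus strand: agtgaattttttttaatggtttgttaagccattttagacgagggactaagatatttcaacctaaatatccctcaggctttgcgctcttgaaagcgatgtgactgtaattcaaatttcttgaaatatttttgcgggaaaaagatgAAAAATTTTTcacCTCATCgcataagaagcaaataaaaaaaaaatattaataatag
DBP9 chrXII:696931-697130, minus strand: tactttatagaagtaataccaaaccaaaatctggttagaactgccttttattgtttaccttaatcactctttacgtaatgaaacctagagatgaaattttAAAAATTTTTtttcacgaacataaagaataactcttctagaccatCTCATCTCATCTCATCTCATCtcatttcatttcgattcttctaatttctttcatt
NOP15 chrXIV:418589-418788, minus strand: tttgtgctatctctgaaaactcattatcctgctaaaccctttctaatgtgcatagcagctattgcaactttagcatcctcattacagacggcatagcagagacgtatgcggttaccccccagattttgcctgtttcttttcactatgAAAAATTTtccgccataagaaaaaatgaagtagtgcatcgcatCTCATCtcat
UTP4 chrIV:1116864-1117063, minus strand: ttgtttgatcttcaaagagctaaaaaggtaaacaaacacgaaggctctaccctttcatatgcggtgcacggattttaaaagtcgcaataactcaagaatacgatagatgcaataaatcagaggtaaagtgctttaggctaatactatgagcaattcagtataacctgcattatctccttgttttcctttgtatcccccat
IMP3 chrVIII:393234-393433, plus strand: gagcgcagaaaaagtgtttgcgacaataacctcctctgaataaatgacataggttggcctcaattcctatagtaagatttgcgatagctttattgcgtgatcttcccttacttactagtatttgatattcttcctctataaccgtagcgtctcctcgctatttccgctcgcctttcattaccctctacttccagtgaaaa
SPB4 chrVI:147035-147234, minus strand: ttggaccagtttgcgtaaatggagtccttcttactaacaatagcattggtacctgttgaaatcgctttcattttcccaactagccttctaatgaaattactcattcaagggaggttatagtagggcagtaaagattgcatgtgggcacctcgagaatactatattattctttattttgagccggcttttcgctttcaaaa

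DBP3 had its RRPE matches 156 and 154 bases and its PAC match 143 bases before the start codon, so the pair lay side by side. DBP9 had RRPE matches at 200 and 198 and 4 overlapping PAC matches at 155, 150, 145 and 140. NOP15 had RRPE at 153 and PAC at 110 and 105, the latter cut by the end of the window. IMP3 and SPB4 also had both elements, but closer to the start codon, with IMP3 at 102 for RRPE and 82 for PAC and SPB4 at 104 and 102 for RRPE and 67 for PAC. UTP4, the gene with the largest fall, had no PAC match within 300 bases and its RRPE match lay at 34. The windows of IMP3 and SPB4 overlap coding sequence of neighbouring genes, by 50 bases of MRPL6 and by 104 bases of DEG1.

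Both elements were frequent before the assembly genes. In the window from 300 to 101 bases, PAC was present in 41 of 58 members (70.7%), against 13.8% of 6001 protein-coding genes and 9.49% of the 137 ribosomal protein genes. Its longer form GCGATGAG, which contains the core, was present in 24 members (41.4%) against 2.92% of all. RRPE was present in 49 members (84.5%), against 12% of all and 13.1% of ribosomal protein genes. Both were present in 37 members (63.8%) against 3.73% of all. With the window extended to the start codon, 55 members (94.8%) held PAC and 52 (89.7%) RRPE, against 19.1% and 15.1% of all. Of the 50 members with both elements in those 300 bases, 44 had RRPE farther from the start codon than PAC, by the median position of their matches. The windows of 21 members overlap the coding sequence of another gene.

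The change was also compared between members with and without a PAC match, as a description. The median log2 fold change in upf1Δ was -0.39 for the 41 members with PAC in the window and -0.32 for the 17 without. In nmd4Δ it was -0.34 for both, and in ebs1Δ -0.04 and -0.06. RRP3 and SSF1 lie head to head with 297 bases between their coding sequences, so they share a promoter region and are not independent in this respect.

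**Figure D4:**
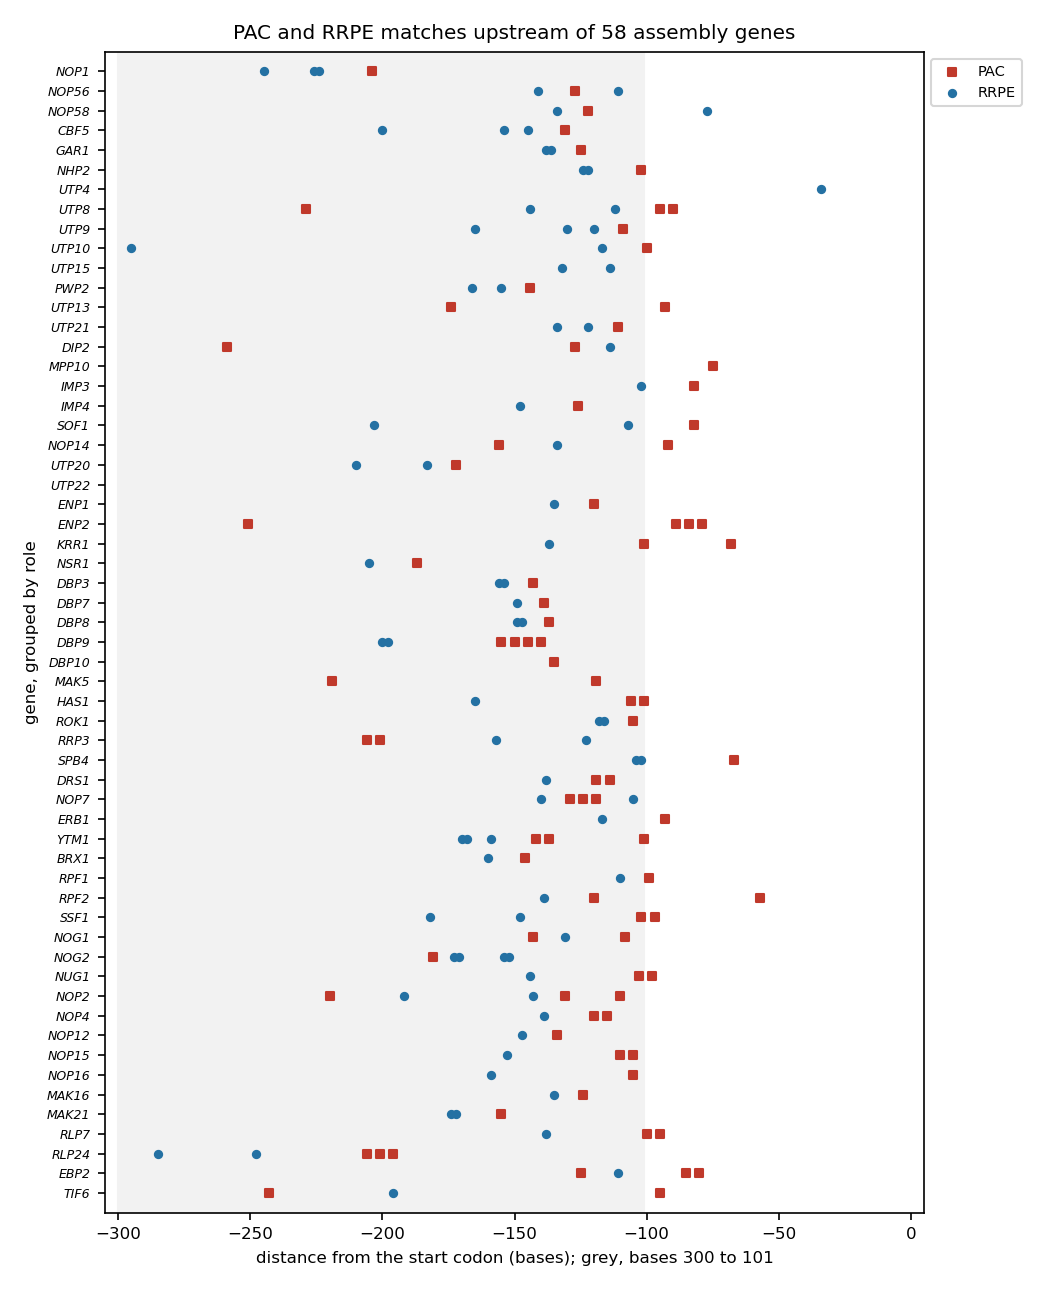
Position of each match to the PAC core (red squares) and the RRPE core (blue circles) in the 300 bases before the start codon of each of the 58 genes, in bases from the start codon; grey marks bases 300 to 101. RRPE matches lie at a median of 145 bases and PAC matches at 120 bases before the start codon.

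Direct comparison of the deletions showed where their effects on the assembly genes differed. Between nmd4Δ and upf1Δ, 9 members were higher and 2 lower in nmd4Δ (edgeR's quasi-likelihood test), where 66.9% of all tested genes differed. The 9 were NOP1, NOP56, NOP58, CBF5, GAR1, UTP22, RRP3, BRX1 and TIF6, which include 5 of the 6 snoRNP protein genes. NOP1 no longer passed with the matched block (limma voom adjusted p = 0.0603) or with the replicate number as a block (edgeR adjusted p = 0.0559). With library size alone in place of TMM factors, 0 members were higher and 6 lower, where 682 of 6162 tested genes were higher and 47% lower. The median of all genes shifted to -0.16 on the log2 scale. Relative to that median, the members' median difference was 0.07 under both scalings, which a common shift of all genes leaves unchanged by construction. With matched libraries summed, 4 members were higher and 2 lower, where 1880 of 6195 tested genes were higher and 36.2% lower. Of the 9 members higher in the main fit, NOP56, a core box C/D protein, had the largest difference, 0.28 ± 0.0670 on the log2 scale (edgeR adjusted p = 0.00114). It had 639, 709, 648, 665 and 704 CPM in wild type, 471, 527 and 435 in upf1Δ, and 563, 574 and 606 in nmd4Δ as lowest, median and highest, so the 3 genotypes did not overlap.

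The 2 members lower in nmd4Δ than in upf1Δ were IMP3, by -0.36 ± 0.0989 on the log2 scale (edgeR adjusted p = 0.00389), and SPB4, by -0.33 ± 0.0679 (adjusted p = 0.000355). Without upf1Δ library 2, 32 members were higher and 1 lower in nmd4Δ, where 2027 of 6197 tested genes were higher and 33.2% lower. For the other members a p above the threshold does not show equal effects.

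Between ebs1Δ and upf1Δ, 47 members were higher in ebs1Δ and 0 lower (edgeR's quasi-likelihood test), where 27.4% of all tested genes were higher. The median difference was 0.35 on the log2 scale. The count was 32 without ebs1Δ library 2 and 55 without upf1Δ library 2, where 26.8% and 28.8% of all tested genes were higher.

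Between nmd4Δ and ebs1Δ, 38 members were lower in nmd4Δ and 0 higher (edgeR's quasi-likelihood test), where 16.0% of all tested genes were lower. The matched block in limma voom gave 34 members, where 10.6% of all tested genes were lower, and summed matched libraries gave 8 (edgeR), where 12.3% were. The median difference was -0.28 on the log2 scale. The lowest p-values belonged to NOP12, DBP10, DBP7, SPB4, IMP3 and SOF1. NOP12, an RNA-binding large-subunit factor, differed by -0.36 ± 0.0829 (edgeR adjusted p = 0.0055), and DBP10, a helicase, by -0.34 ± 0.0797 (adjusted p = 0.00718). This comparison rested on single ebs1Δ libraries: 0 members were called without library 2, 7 without library 3 and 51 without library 1, where 6.65%, 8.07% and 18.9% of all tested genes were lower. The count was 20 and 14 without nmd4Δ library 1 or 2, where 11.6% and 11% of all tested genes were lower.

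Other gene groups of ribosome production were set beside the members. Of all 6162 tested genes, 2162 fell and 2242 rose in upf1Δ. The numbers were 889 and 836 in nmd4Δ, and 455 and 863 in ebs1Δ. The 86 other assembly factors had 53 lower and 5 higher in upf1Δ (median log2 fold change -0.29), 74 lower and 0 higher in nmd4Δ (-0.30), and 0 lower and 2 higher in ebs1Δ (-0.02), in edgeR's quasi-likelihood test. The exceptions in upf1Δ included ESF1 at 1.48, JIP5 at 1.29 and NOP19 at 0.69, all of them assembly factors outside the 58. Of 11 RNA polymerase I genes, 5 fell and 2 rose in upf1Δ, and 6 fell in nmd4Δ. The mRNAs of its subunits RPA49 and RPA43 fell by 0.37 and 0.33 on the log2 scale in upf1Δ. That of the initiation factor RRN6 rose by 0.29.

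Ribosomal protein genes were also mostly lower in upf1Δ. Of 137, 128 fell and 4 rose in upf1Δ (median log2 fold change -0.33), with RPS6A at -0.48, RPS1B at -0.45 and RPL22B at 1.40. In nmd4Δ 13 fell and 1 rose (-0.04), and in ebs1Δ 28 fell and 1 rose (-0.09). Over all 6162 tested genes, 35.1% fell in upf1Δ, 14.4% in nmd4Δ and 7.38% in ebs1Δ, and 2242, 836 and 863 rose. The summed level of the ribosomal protein genes was 216000 ± 7010 CPM in wild type and 172000 ± 5300 in upf1Δ. It was 209000 ± 6500 in nmd4Δ and 201000 ± 4410 in ebs1Δ (SD, n = 3). Library 2 of upf1Δ, where the assembly genes were nearest to wild type, had 178000 CPM of ribosomal protein mRNA against 171000 and 168000 in libraries 1 and 3. The difference between the 2 groups of genes was not tested. Of 22 stress-induced genes, 4 rose and 5 fell in upf1Δ, among them ALD3 at 1.40, SSA4 at 1.22 and HSP12 at -2.51 on the log2 scale, 3 rose and 1 fell in nmd4Δ, and 0 rose and 5 fell in ebs1Δ.

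**Figure D5:**
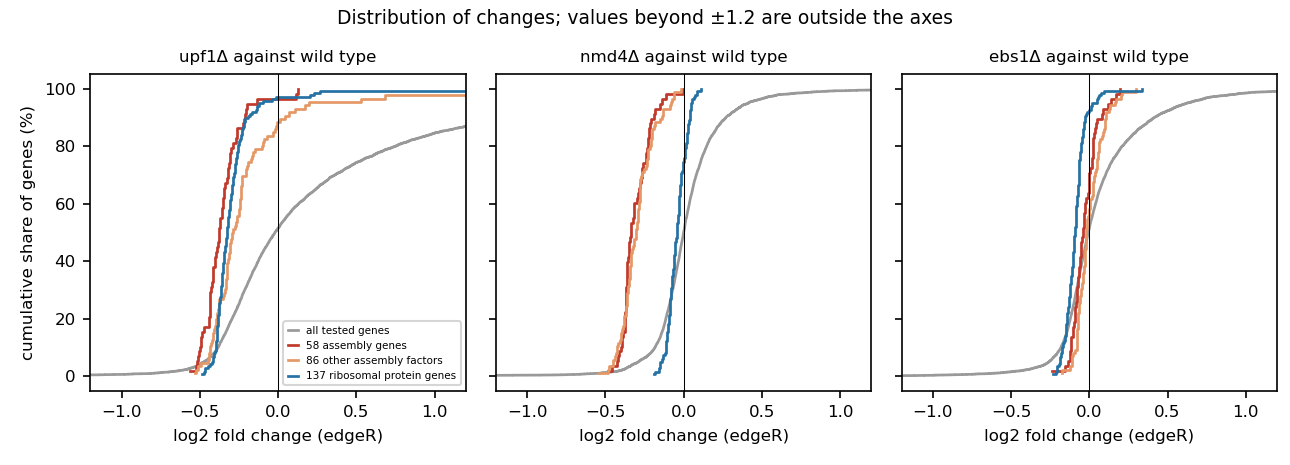
Cumulative share of genes (percent) against log2 fold change from wild type in upf1Δ, nmd4Δ and ebs1Δ, for all tested genes, the 58 assembly genes, 86 other assembly factors and 137 ribosomal protein genes. The assembly genes lie left of 0 in upf1Δ (median -0.38) and nmd4Δ (-0.34) and near 0 in ebs1Δ (-0.04), while ribosomal protein genes lie left of 0 in upf1Δ (-0.33) and near it in nmd4Δ (-0.04).

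The change was also set against the level of the mRNA. Spearman's rho of the log2 fold change with wild type CPM was 0 across the members for upf1Δ, against -0.59 across all 6162 tested genes. For nmd4Δ it was 0.32 against -0.31, and for ebs1Δ -0.34 against -0.46. These correlations run across genes, which share libraries, depth and the wild type samples, and are given as descriptions.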

How the data were processed

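Poly(A) RNA of 17 yeast samples was made into directional libraries, per the labels' protocols. The authors deposited raw read counts per gene, with alignment to sacCer3 by STAR 2.7.11a and counting with featureCounts (Subread 2.0.5) named in the submitters' processing notes. No source used here gives the annotation, strand setting or treatment of multimapping reads, so reads of overlapping or near-identical genes may be shared. Of 6692 identifiers, 6008 are in RefSeq R64 and 684 are not.

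The counts went into edgeR 4.0.16 (R 4.3.3): filterByExpr by genotype (6162 genes), TMM scaling, and the robust quasi-likelihood fit with terms for genotype and batch (12 residual degrees of freedom, common dispersion 0.005254). Tests were two-sided, with p-values adjusted over all tested genes by the Benjamini-Hochberg method and called under 0.05. Each SE is the absolute log2 fold change divided by the square root of F. CPM carry no batch correction. Counting error alone is small at 19.8 to 59.5 M reads per library. P-values measure the spread between these libraries.

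Matched libraries were found from the counts of pairs taken across the batches. In nmd4Δ, residual correlations over genes were 0.769 to 0.882 in matched pairs and -0.653 to -0.117 in others, and chi-square per degree of freedom was 9.26 to 12.4 against 24.8 to 41.6. Pairs of nmd4Δ libraries within a batch had 12.3 to 39.8, which meets the matched range. In wild type, correlations were 0.678 to 0.834 against -0.834 to 0.426. Residuals are deviations from the mean of 2 or 3 libraries, so unmatched pairs tend below 0 by construction. Matched libraries differed beyond sampling noise and the labels name each a replicate, so they stayed separate in the main test. That does not make them independent, so its SEs and p-values may be too small where wild type or nmd4Δ is compared. As alternatives, limma 3.58.1 voom took each set as a block (consensus correlation 0.7185), and edgeR was run on summed counts or on 1 library per set. DESeq2 1.42.0, other scalings, no filter, single batches and leaving out each library were further alternatives.

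Replicate numbers may pair libraries of upf1Δ and nmd4Δ, whose 3 same-numbered pairs in batch 1 all had residual correlations over 0.1 (0.127 to 0.182). Wild type had 2 libraries in batch 1, whose deviations mirror each other. Its 2 same-numbered pairs passed 0.1 with upf1Δ (0.155 and 0.161) and with ebs1Δ (0.317 and 0.475), and 0 did with nmd4Δ. Of the 3 pairs of upf1Δ with ebs1Δ, 2 passed (range -0.0703 to 0.51), and of nmd4Δ with ebs1Δ, 0 did.

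The members and gene lists were chosen with earlier results of these data known. Members are named by a rule: the highest wild type CPM of each role, the 4 largest falls and rises against wild type, calls in the rarer direction, and the 6 lowest p-values between nmd4Δ and ebs1Δ. For other lists the 3 lowest p-values in upf1Δ are named. ENP1, EBP2, IMP4 and members named for a count were chosen after their values were seen. Motifs were searched on both strands of RefSeq R64. The procedure was tested on simulated data with independent libraries and few changed genes, so matched libraries and broad shifts were not covered. Of simulated 1.25-fold changes, 58.2% to 79.1% were recovered, depending on the comparison.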

Additional observations from a re-analysis of the deposited data

Results flagged for a closer look

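In wild type, 2 members had 1 library far from the other 4. DBP7 stood at 63.8 CPM in replicate 5, against 74.8 to 78.5 CPM in the others, and the gap was 0.747 of the whole range. SOF1 stood at 82.8 CPM in replicate 5, against 93.5 to 96.6 CPM, and the gap was 0.780 of the range. These were 2 of 54 groups of libraries looked at, and chance flags about 1 in 20 groups. Replicate 5 is also the wild type library that has no matched partner in the other batch.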

How the results depend on the processing

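In upf1Δ the count of members that fell stayed within 1.5 times of 51 under the alternatives run, except with library size alone (2 higher, 22 lower), where NOP1 turned from -0.13 to 0.026. In nmd4Δ the count of 54 was 34 with the matched block, 6 with matched libraries summed, 9 with 1 library per set and 0 in batch 1 alone. Of all tested genes, 4.54%, 1.84%, 1.97% and 0.694% were lower in these fits. In ebs1Δ 1 member fell with no batch term. Between nmd4Δ and upf1Δ, 6 members differed with library size alone (0 higher, 6 lower), 7 in batch 1 alone (5 and 2), 6 with matched libraries summed (4 and 2) and 7 with 1 library per set (5 and 2). In these fits 682, 1674, 1880 and 1655 of all tested genes were higher, and 47%, 34.3%, 36.2% and 34.2% lower. Between nmd4Δ and ebs1Δ, 2 were lower in batch 1 alone, 8 with matched libraries summed and 3 with 1 library per set, where 6.65%, 12.3% and 7.12% of all tested genes were. The summed fit holds the reads of all 17 libraries as 3 sets per genotype, and the 1-per-set fit holds 1 library of each set. With matched libraries summed, 46 members fell in upf1Δ, where 35% of all tested genes did. The causes of these differences were not tested.

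Leaving out 1 library at a time gave 42 to 56 members lower in upf1Δ, 43 to 55 in nmd4Δ and 0 to 1 in ebs1Δ, 8 to 33 different between nmd4Δ and upf1Δ, 32 to 55 between ebs1Δ and upf1Δ, and 0 to 51 between nmd4Δ and ebs1Δ, with 0 for members higher than wild type and for the batch difference. Of the values of single named members against wild type under all alternatives, 2160 kept their side of the threshold, 170 lost the call and 35 gained it. The remaining 1 reversed its direction. Direction was checked only for values called in a fit, so the 2160 include uncalled values that may have changed direction.

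Same-numbered libraries of different genotypes correlated at -0.082 to 0.51 (9 of 15 over 0.1) and others at -0.632 to 0.411 (4 of 30). Only upf1Δ with nmd4Δ had 3 pairs that all passed 0.1. Wild type, with 2 libraries in batch 1, had 2 of 2 with upf1Δ and with ebs1Δ. With the replicate number as a block, 53 members fell in upf1Δ, 52 in nmd4Δ and 0 in ebs1Δ, and 10 (8 higher, 2 lower), 52 and 44 differed between nmd4Δ and upf1Δ, ebs1Δ and upf1Δ, and nmd4Δ and ebs1Δ.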
